A study of Mus musculus with 6 samples.

Results

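The forkhead genes encode transcription factors that share a winged-helix DNA-binding domain, the forkhead box. They were taken as all protein-coding genes of the RefSeq GRCm38 table with a symbol of Fox, 1 letter from A to S and a number. This gave 44 members among the 21887 protein-coding genes of the autosomes and sex chromosomes. Their chromatin was read from ATAC-seq, which marks open DNA by where a transposase can insert adapters.

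The cells were embryonic fibroblasts of the mouse line A (C2), immortalised with c-myc, and transposition was on whole cells. There were 3 groups with 2 samples each: wild-type, genotype Ezh2 -/-, and Ezh2 -/- given Ezh2 back by the retrovirus pMSCV-Ezh2. Ezh2 is the methyltransferase of the Polycomb complex PRC2. All groups derive from this single immortalised line. The only list used was that of the Ezh2 -/- cells, which holds 21835 accessible intervals, pooled with no value per sample. Neither wild-type nor rescue data were used here, so nothing below says whether accessibility changed on loss of Ezh2. No replicate error exists, the depth is unknown, and no test was made between gene groups.

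Subfamilies of forkhead genes differ in where they act. Foxa, Foxc, Foxd and Foxf factors pattern embryonic tissues, and their genes are textbook targets of Polycomb, which keeps developmental genes silent outside their lineage. Foxo factors act downstream of insulin and PI3K-Akt signalling in most tissues, and Foxk and several Foxj and Foxn factors are also widely expressed. For the comparison, 22 genes were taken as Polycomb-target subfamilies, among them Foxa, Foxb, Foxc, Foxd, Foxe, Foxf, Foxi, Foxl and Foxq. Foxj, Foxk, Foxn and Foxo (13 genes) were taken as broadly expressed ones. No data on Polycomb binding or on expression were used, so both group names are labels only. The letter alone set the group, so Foxj1, Foxn1, Foxn4 and Foxo6, which have restricted expression, stand in the broad group. The other 9 genes are Foxh1, Foxm1, Foxp1 to Foxp4, Foxr1, Foxr2 and Foxs1.

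Of the 44 forkhead genes, 24 (54.5%) had an interval within 1 kb of a gene end, against 47.4% of all protein-coding genes. The broadly expressed subfamilies had one at 11 of 13 genes (84.6%, exact 95% binomial interval 54.6 to 98.1), and the Polycomb-target subfamilies at 8 of 22 (36.4%, interval 17.2 to 59.3). Thus the first share lay above and the second below that of all genes, although their intervals overlap, and these cover counting over genes only. The remaining genes had one at 5 of 9 (55.6%). By letter, all members of Foxj (3), Foxk (2) and Foxc (2) and the single genes Foxh1, Foxm1 and Foxs1 had a gene-end interval, and none did in Foxb (2 genes), Foxe (2), Foxi (3) and Foxr (2) or at the single gene Foxq1. An unlisted gene is one where no region passed the authors' calling threshold, which need not mean closed chromatin.

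The promoters of 6 members, picked by hand as examples, are printed here. Such a choice cannot show how often base composition and accessibility go together. Each is 300 bases from RefSeq on GRCm38.p6, from 250 before to 50 after the listed start, 5′ to 3′, with CpG dinucleotides in capitals. Foxk2 (chr11:121259737-121260036, plus strand) and Foxo3 (chr10:42276646-42276945, minus strand) are broadly expressed genes with an interval over the start. Foxc1 (chr13:31806396-31806695, plus strand) is a developmental gene with one, and Foxf2 (chr13:31625566-31625865, plus strand), its neighbour, and Foxd3 (chr4:99656049-99656348, plus strand) have none. Foxi2 (chr7:135410117-135410416, plus strand) is a CpG-poor gene with none.
Foxk2: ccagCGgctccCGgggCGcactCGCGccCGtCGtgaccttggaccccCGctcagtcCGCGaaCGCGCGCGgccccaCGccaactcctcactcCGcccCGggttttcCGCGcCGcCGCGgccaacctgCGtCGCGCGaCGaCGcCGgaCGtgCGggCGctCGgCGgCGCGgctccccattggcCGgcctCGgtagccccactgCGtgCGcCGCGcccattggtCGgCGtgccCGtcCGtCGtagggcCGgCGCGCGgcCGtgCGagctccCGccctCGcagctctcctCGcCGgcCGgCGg
Foxo3: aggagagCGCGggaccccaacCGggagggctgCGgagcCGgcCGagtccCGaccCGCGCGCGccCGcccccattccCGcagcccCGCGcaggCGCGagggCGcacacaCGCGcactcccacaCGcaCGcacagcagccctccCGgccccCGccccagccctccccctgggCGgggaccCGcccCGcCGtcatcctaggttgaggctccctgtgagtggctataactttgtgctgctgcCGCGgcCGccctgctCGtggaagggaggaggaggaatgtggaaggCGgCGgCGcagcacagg
Foxc1: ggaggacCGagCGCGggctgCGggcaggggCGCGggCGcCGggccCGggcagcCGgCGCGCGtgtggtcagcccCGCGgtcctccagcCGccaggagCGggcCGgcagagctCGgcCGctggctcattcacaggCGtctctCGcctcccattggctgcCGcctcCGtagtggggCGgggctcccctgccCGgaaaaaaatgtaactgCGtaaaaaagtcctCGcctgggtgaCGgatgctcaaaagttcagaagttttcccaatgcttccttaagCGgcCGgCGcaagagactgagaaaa
Foxf2: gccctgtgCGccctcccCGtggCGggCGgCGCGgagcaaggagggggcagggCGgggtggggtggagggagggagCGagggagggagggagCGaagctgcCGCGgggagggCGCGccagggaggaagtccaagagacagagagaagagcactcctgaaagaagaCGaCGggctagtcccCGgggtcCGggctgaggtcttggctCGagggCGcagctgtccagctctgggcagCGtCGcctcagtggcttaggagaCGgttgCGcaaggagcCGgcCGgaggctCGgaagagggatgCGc
Foxd3: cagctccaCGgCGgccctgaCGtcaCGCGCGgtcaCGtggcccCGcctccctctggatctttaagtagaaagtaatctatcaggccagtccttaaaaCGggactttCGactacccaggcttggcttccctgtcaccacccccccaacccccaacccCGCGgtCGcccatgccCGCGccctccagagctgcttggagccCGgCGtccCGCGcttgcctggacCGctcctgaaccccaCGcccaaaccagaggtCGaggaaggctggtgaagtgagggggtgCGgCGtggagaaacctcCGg
Foxi2: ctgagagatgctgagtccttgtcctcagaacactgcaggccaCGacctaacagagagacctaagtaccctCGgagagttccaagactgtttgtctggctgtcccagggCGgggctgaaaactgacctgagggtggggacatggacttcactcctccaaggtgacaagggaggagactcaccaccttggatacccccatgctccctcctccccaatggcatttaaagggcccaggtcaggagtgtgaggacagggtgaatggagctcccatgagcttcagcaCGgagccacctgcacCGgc

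The Foxk2 promoter held 59 CpGs, a ratio of observed to expected CpG of 1.28, and that of Foxo3 held 35 (0.83). Foxc1 held 32 (0.94), Foxf2 27 (0.79) and Foxd3 25 (0.79), so the 3 developmental genes were close in CpG content while only Foxc1 among them had an interval. Foxi2 held 5 (0.20).

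Of the broadly expressed genes, Foxo3 had the highest maximum signal of all members. Foxo factors are held in the cytoplasm when Akt is active and otherwise switch on genes of arrest, apoptosis and stress defence. At Foxo3 an interval of 5656 bp over the upper end of the gene (chromosome 10, 42273474 to 42279129, mm10) had a total signal of 92423, the area under the coverage, and a maximum of 72, the height of the coverage, both in the authors' units. The maximum ranked 284 among 19147 called regions on chromosomes. Foxo1 had an interval over its start with a total of 43957 and a maximum of 27, which equals the median maximum of all called regions. Over all genes with a gene-end interval the median maximum was 38 and the lower quartile 28. Foxo6, the neuronal member, had an interval at its upper end that reached the antisense gene Foxo6os, part of a called region with a total of 164885 and a maximum of 59. That region continued as a second piece of 9815 bp inside the gene, so its total is for both pieces. Foxo4, on the X chromosome, had its nearest interval 71135 bp away, and only 10.6% of the other genes within 5 Mb of it had a gene-end interval.

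Both Foxk genes, which encode widely expressed repressors with a forkhead-associated domain, were accessible. Foxk2 had an interval of 4208 bp over its start, in a called region of 3 pieces with a total of 156752 (rank 243) and a maximum of 54. Foxk1 had intervals at both ends, with totals of 42652 at the lower and 117316 at the upper end (maximum 41 and 48). The interval at the upper end, 11654 bp wide, also came within 1 kb of an end of Ap5z1. In all, 8 intervals touched the Foxk1 gene, the most of any member. Foxk1 and Foxk2 lie among accessible genes: 73.6% and 82.2% of the other genes within 5 Mb had a gene-end interval.

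The Foxj and Foxn genes spanned a wide range. Foxn2 reached a maximum of 63 and a total of 79350 at its lower end, while Foxn3 had 23 and 25945 at its upper end. Inside Foxn3 another interval, within 1 kb of an end of Gm51999, had a maximum of 44 and a total of 55053. Foxj3 (total 41291, maximum 30) and Foxj2 (20309 and 26) had intervals over their listed starts. The one at Foxj3 was shared with an end of the protein-coding gene Frg2f1. Foxj1, the master regulator of motile cilia, had an interval of 7208 bp with a total of 116400 and a maximum of 40. That interval also lay within 1 kb of an end of Rnf157, so it cannot be assigned to Foxj1 alone. Of the other genes within 5 Mb of Foxj1, 83.8% had a gene-end interval. Foxn4, a factor of retinal progenitors, had its gene-end interval (total 19559, maximum 17) at the end opposite its listed start. The start of Foxn4 lay 1606 bp from the nearest interval, which was inside the gene. That interval was part of a called region of 2 pieces with a total of 81751 and a maximum of 26. Foxn1, required for thymic epithelium and hair, had none at its ends and 1 inside the gene (total 22808, maximum 20). It was the only member with an interval in the body but none at an end, a state found at 6.29% of all genes.

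The 8 accessible Polycomb-target genes had lower maxima. Their median maximum signal was 24.5 (12 to 49), against 40 (17 to 72) in the 11 accessible broad genes and 38 in all genes with a gene-end interval. The median total was 38440, against 79350 and 39334.5. Both ranges overlap between the groups, and the differences were not tested. The plot of member values shows this overlap. Of the accessible broad genes, Foxk1, Foxn4, Foxj1 and Foxk2 lie on chromosome 5 or distal chromosome 11, left out in a setting below. No Polycomb-target gene lies there. The other broad maxima were 72 (Foxo3), 63 (Foxn2), 59 (Foxo6), 30 (Foxj3), 27 (Foxo1), 26 (Foxj2) and 23 (Foxn3). Their middle value, 30, was below the 38 of all genes with a gene-end interval, which still include genes in those places. The middle total of these broad genes was 43957 (Foxo1). The broad medians thus depend on genes in those places.

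**Figure D1:**
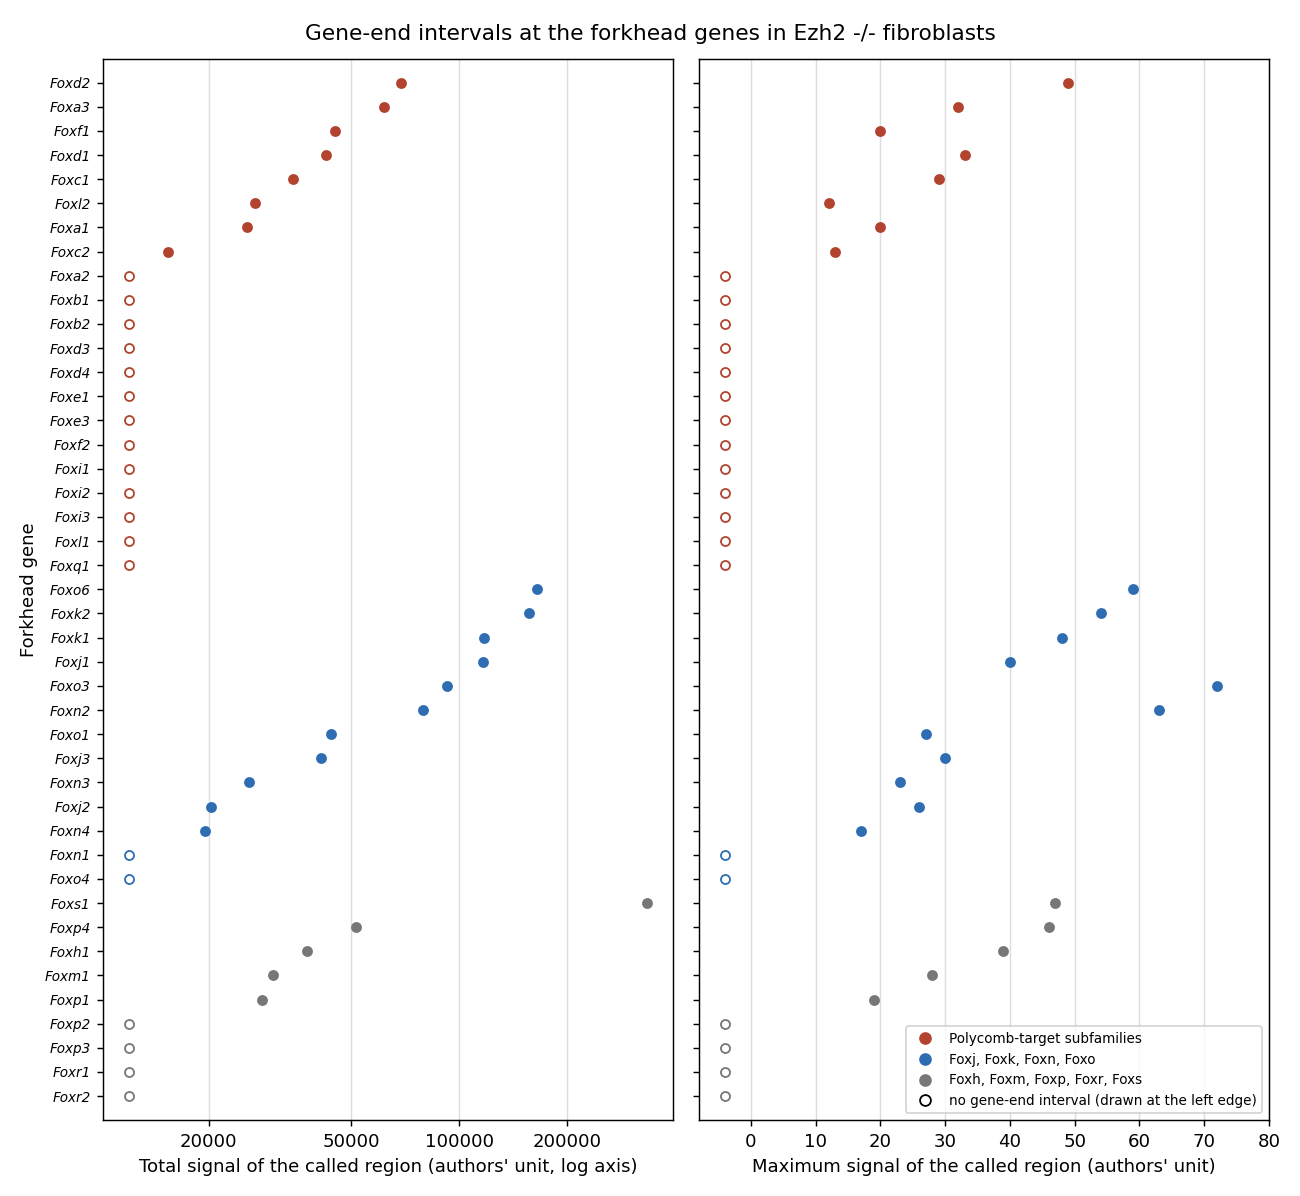
Total signal (left, log axis) and maximum signal (right) of the called region at the ends of 43 forkhead genes, in the authors' units, coloured by group, with the region of higher total where a gene has 2. Filled circles are the 24 genes with a gene-end interval, open circles 19 without, which have no value. Foxs1 has the highest total (335686) and Foxo3 the highest maximum (72).

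Foxd2 was the highest of the Polycomb-target genes, with a total of 68959 and a maximum of 49. Its interval (chromosome 4, 114907960 to 114911444) covered the listed start and the adjoining end of the long non-coding gene Foxd2os. Foxd1, which marks kidney stroma, had an interval over its start (total 42489, maximum 33), and the maximum lay 55 bp from that start. Foxd3, a neural crest factor, and Foxd4 had none, with the nearest intervals 55773 and 59593 bp from the genes.

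Foxa factors open compacted chromatin in endoderm and liver. Foxa3 (total 61889, maximum 32) and Foxa1 (25626 and 20) had intervals over their listed starts, and the nearest to Foxa2 lay 68743 bp away. Both accessible Foxa genes shared the interval with another protein-coding gene, Foxa3 with Sympk, which encodes an mRNA processing scaffold, and Foxa1 with Ttc6. Foxl2, the granulosa cell factor of the ovary, had a low interval (total 26847, maximum 12) that also reached Foxl2os. The position of its maximum was not wholly inside the interval.

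The Foxf and Foxc genes act in mesenchyme, the tissue from which fibroblasts derive. On chromosome 8, Foxf1, Foxc2 and Foxl1 lie within 46259 bp. There, Foxf1 had an interval (121081928 to 121085769) with a total of 45022 and a maximum of 20, which also covered the adjoining end of the long non-coding gene Fendrr. Foxc2 had 15409 and 13, close to the lowest total in the whole list, 15316, and ranked 19052 of 19147 called regions by total. Foxl1, of gut mesenchyme, had none at its ends, and the nearest lay 1192 bp away. The tallest interval in this stretch (maximum 44, total 46953) lay at an end of Mthfsd, a gene between Foxf1 and Foxc2. On chromosome 13, Foxq1, Foxf2 and Foxc1 lie within 252466 bp. Only Foxc1 had a gene-end interval there (total 34391, maximum 29). Another interval, with a total of 20935 and a maximum of 17, stood 6197 bp from Foxf2. With 20 kb at either side, intervals covered 15.0% of the chromosome 8 stretch and 2.71% of that on chromosome 13. Foxe3, a lens factor and the neighbour of Foxd2 on chromosome 4, had its nearest interval 12999 bp away.

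**Figure D2:**
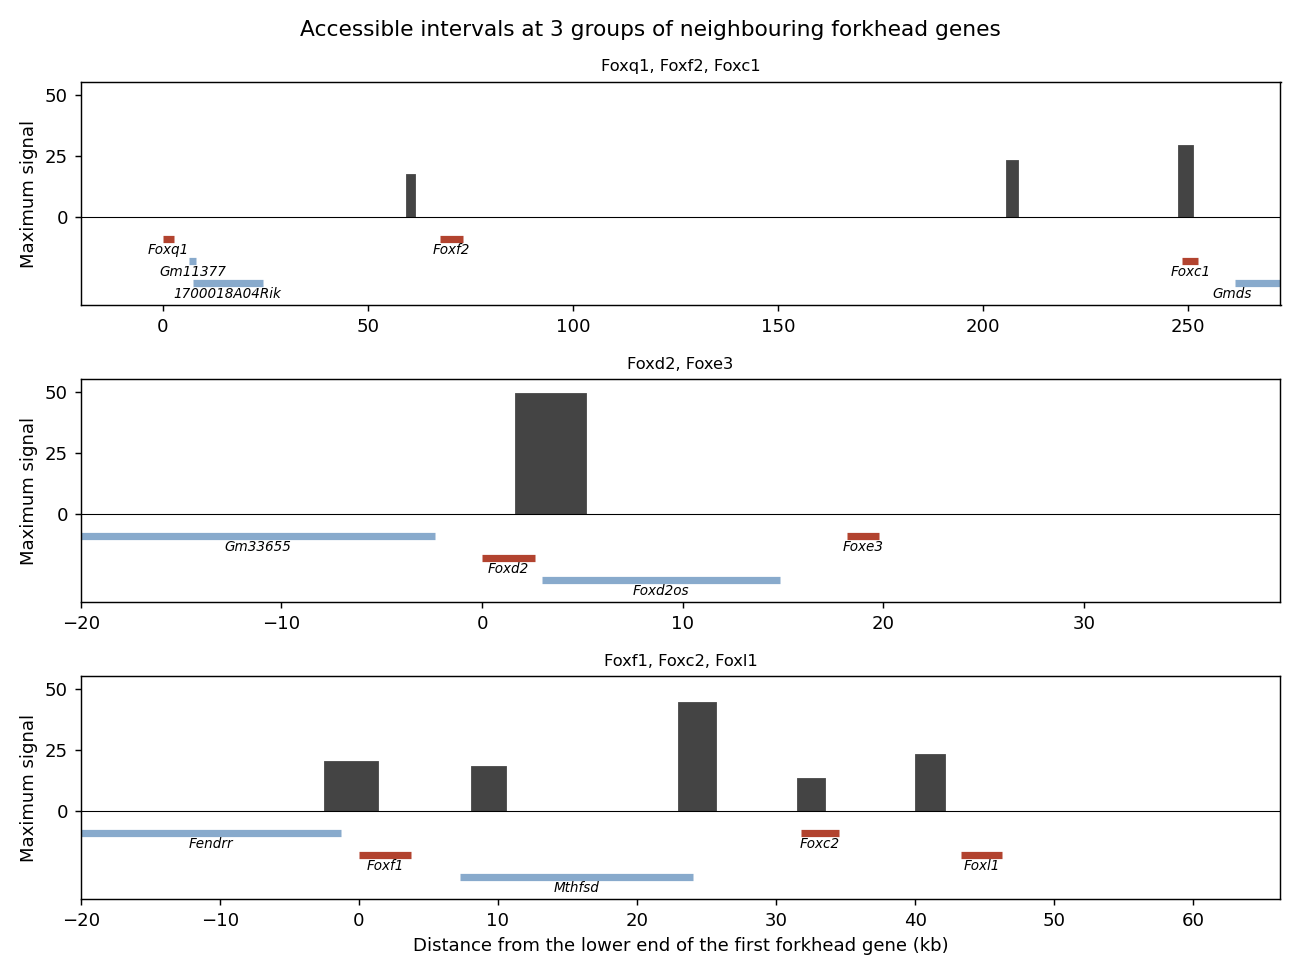
Intervals (grey bars, height is the maximum signal of the called region in the authors' unit) and genes (forkhead red, others blue) at 3 groups of neighbouring forkhead genes, by distance in kb from the lower end of the first one. Foxc1, Foxd2, Foxf1 and Foxc2 have an interval at a gene end, and Foxq1, Foxf2, Foxe3 and Foxl1 have none.

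Other Polycomb-target genes without an interval included Foxb1, Foxb2, Foxe1, Foxi1, Foxi2 and Foxi3. Of these 6, Foxi1, of the inner ear and kidney, was the farthest from an interval, at 625048 bp, and Foxb2 the nearest, at 2190 bp. None of the 14 Polycomb-target genes without a gene-end interval had one inside the gene. These genes are short, with a median length of 3095.5 bp in the group against 49830 bp in the broad group. In the broad group 12 of 13 genes had an interval touching the gene body and in the Polycomb-target group 8 of 22, so that 25 of all 44 members did (56.8%, against 52.8% of all genes).

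Among the remaining genes, Foxm1, which drives the expression of mitotic genes, had an interval with a total of 30285 and a maximum of 28, shared with the adjoining gene Rhno1. Foxh1, a partner of Smad proteins in Nodal signalling, had 37571 and 39, shared with Ppp1r16a. Foxs1 lay wholly inside an interval of 11233 bp with a total of 335686, rank 13 of 19147. This total is for a called region of 4 pieces, and the interval also lay at an end of Mylk2, the kinase of skeletal myosin light chain. By maximum, 47, Foxs1 ranked 2594.

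Foxp4 (51506 and 46) and Foxp1 (28248 and 19) had an interval over a listed start. Foxp1, 597405 bp long, has 3 listed starts. Intervals covered the most upstream one (13 CpGs) and the most downstream one (44 CpGs), and the nearest to the middle one (5 CpGs) lay 218244 bp away. Foxp2, known from brain and lung, had no interval over its 540629 bp, and the nearest lay 278694 bp away. Foxp3, the regulatory T cell factor, had its nearest interval 4287 bp away. Foxr1 and Foxr2 had none. Foxp3 and Foxr2 are X-linked, and 5.77% and 14.1% of their neighbours within 5 Mb had a gene-end interval.

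In total, 8 of the 24 accessible members had a gene-end interval that also lay within 1 kb of an end of another protein-coding gene, and for 7 of them no other interval was at the gene. Over all protein-coding genes, 10378 had a gene-end interval, and 6958 still had one once such shared intervals were left out. For the forkhead genes these counts were 24 and 17. Without shared intervals, 9 of 13 broad and 6 of 22 Polycomb-target genes had one, against 31.8% of all genes. Where a listed start was known, it was covered by an interval at 13 of 28 members. The share of covered starts over all genes was not computed. Within 1 kb of a listed start, 5 of 8 broad and 6 of 15 Polycomb-target genes had an interval (46.9% of all genes with a listed start).

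The order of the groups held under the other settings tried. With windows of 500 bp the counts stayed at 11 of 13 and 8 of 22 (45.9% of all genes), and with windows of 2500 bp they were 12 of 13 and 10 of 22 (50.2%). An overlap of at least 200 bp gave 11 and 8 again (46.9%), and intervals that contain their maximum gave 11 and 7 (45.0%), Foxl2 being lost. Among called regions above the median total signal, 29070, 8 broad and 5 Polycomb-target genes had an interval (32.7%). Above the upper quartile, 45427, these were 6 and 2 (19.6%), the latter being Foxd2 and Foxa3. Outside chromosomes 5, X and Y and chromosome 11 beyond 90 Mb, 7 of 8 broad and 8 of 22 Polycomb-target genes had one (47.8%).

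**Figure D3:**
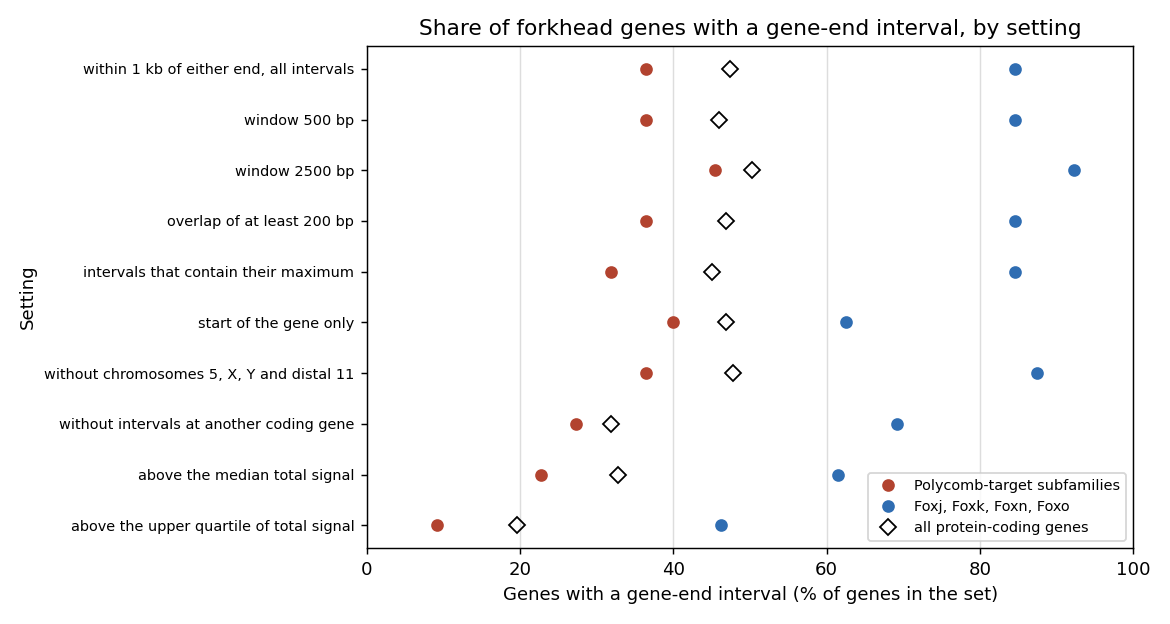
Percent of genes with a gene-end interval in the Polycomb-target (red) and broad (blue) groups and in all protein-coding genes (diamonds), under each setting. In all 10 settings drawn the broad group lies above all genes and the Polycomb-target group below them, from 84.6% and 36.4% in the first row to 46.2% and 9.09% in the last.

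Promoter sequences were listed for 28 of the 44 members. A promoter was called CpG-rich where observed over expected CpG was at least 0.6 and GC at least 50%. This held for 17 of the 28 (60.7%, against 45.8% of all listed genes): 6 of 8 broad, 9 of 15 Polycomb-target and 2 of 5 remaining genes. Of the CpG-rich members 13 of 17 had a gene-end interval, against 75.6% of all CpG-rich genes, and of the other 11 members 2 did, Foxn3 and Foxp1, against 24.5%. At Foxn3 the gene-end interval was not at the listed promoter, whose start lay 54667 bp from the nearest interval, and Foxp1 also has the covered start with 44 CpGs. Within each CpG class the members were thus near the share of all genes. All 6 CpG-rich broad genes had an interval, and 6 of 9 CpG-rich Polycomb-target genes did. The 3 that did not were Foxd3, Foxf2 and Foxi3, with 25, 27 and 31 CpGs. Each gene was classed by its most upstream listed promoter. By that promoter Foxa2 was not CpG-rich. Its other listed promoters met both limits, with ratios of 0.68 and 0.77 and GC of 51.7% and 64%, and it had no gene-end interval. The accessible CpG-rich Polycomb-target genes included Foxd1, with 15.

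**Figure D4:**
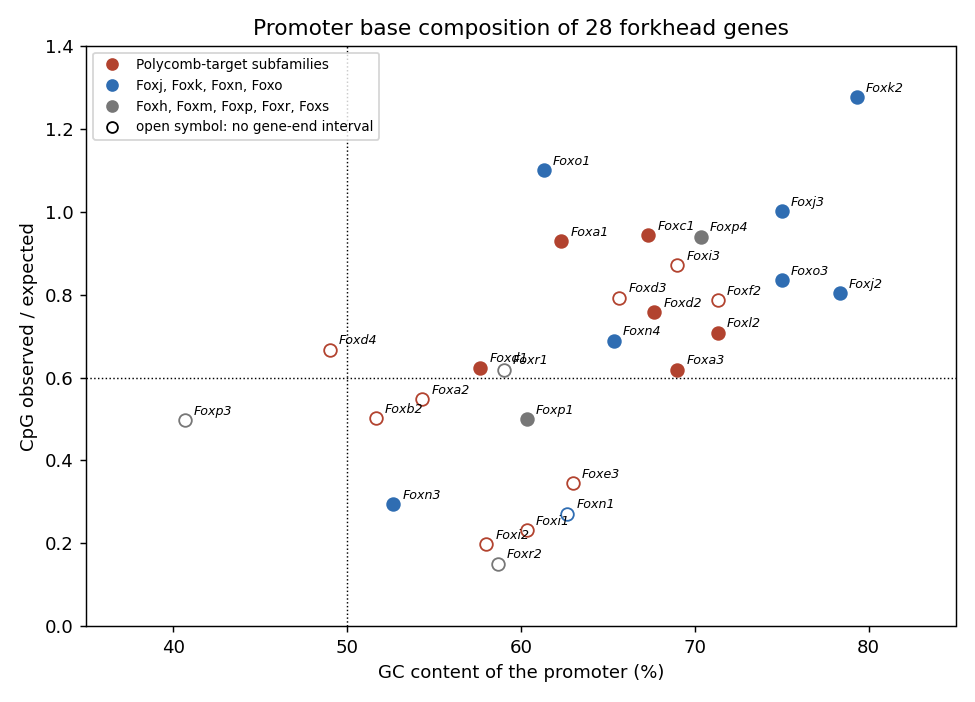
GC content (%) and CpG observed over expected of the most upstream listed promoter of 28 forkhead genes, filled where the gene has a gene-end interval and coloured by group. Dotted lines mark 50% GC and 0.6. Above both lines 13 of 17 genes are filled, and elsewhere 2 of 11.

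Motifs were searched in the same 300 bases on both strands. The forkhead motif GTAAACA was in 1 of 28 member promoters, that of Foxa1, and in 2.93% of all promoters. The AP-1 motif TGANTCA was in 2, at Foxe3 and Foxn3 (7.03% of all), and the E-box CACGTG in 1, at Foxd3 (7.91%). The ETS motif CCGGAAGT (5.28%) and the NRF1 motif (1.33%) were in none. A match is a description of letters only.

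Around the genes, the number of intervals up to 100 kb outside had a median of 6 in the broad group (quartiles 2 and 11), 2 in the Polycomb-target group (1 and 4.75) and 2 in all protein-coding genes (0 and 6). At least 1 stood near 37 of the 44 members, against 71.8% of all genes. Foxk2 had 21, Foxj1 18 and Foxk1 17, while Foxo3, with the tallest gene-end interval, had none. Foxe3 led the Polycomb-target genes with 7. The share of other genes within 5 Mb with a gene-end interval moved in the same direction, with a median of 66.7% around broad genes and 50.3% around Polycomb-target genes. Its part in the difference between the groups was not tested. Within the Polycomb-target group the median of this share was 45.2% around the 8 accessible genes and 52.2% around the 14 others. In the broad group it was 67.3% around the 11 accessible genes and 30.0% around the 2 others. Among the remaining genes it was 56.5% around the 5 accessible and 21.3% around the 4 others. Foxc1 was accessible where only 20.3% of neighbours were, while Foxf2 and Foxq1, with the same share, had no gene-end interval.

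**Figure D5:**
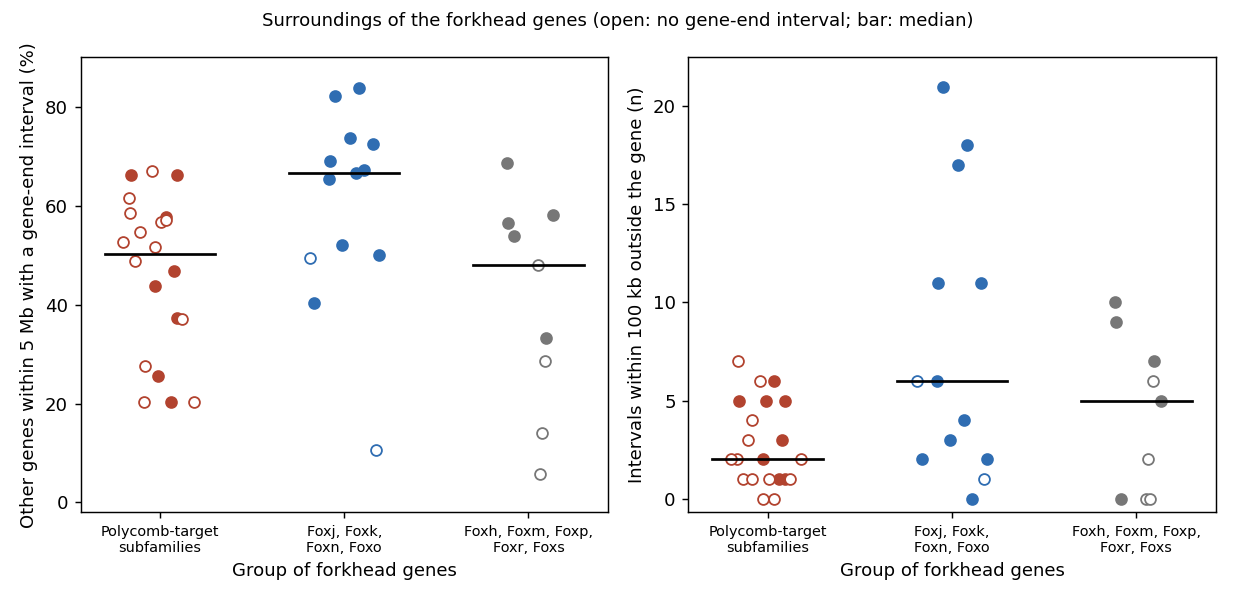
Left, percent of the other protein-coding genes within 5 Mb that have a gene-end interval, right, number of intervals within 100 kb outside the gene, for 43 forkhead genes by group, with the median over all members of the group as a bar and open circles for genes without a gene-end interval. The broad group has the higher medians (66.7% and 6) and also the widest spread of intervals, from 0 at Foxo3 to 21 at Foxk2.

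Genes that act with forkhead factors were counted from lists chosen with earlier results known. Of 23 genes of the PI3K-Akt-Foxo pathway, 19 had a gene-end interval, with the highest totals at the insulin receptor substrates Irs1 (133136) and Irs2 (100161), Ywhag (98828), which encodes a 14-3-3 protein, and Prmt1 (83160). Sgk1, Skp2 and Usp7 had none at an end, but each had an interval inside the gene. Of 20 Foxo target genes 15 had one, led by the apoptosis genes Bcl2l11 (107942) and Bbc3 (90029), then Ccng2 (87705) and Bcl6 (76788). Without one were Fasl, G6pc and Igfbp1, of which G6pc and Igfbp1 are liver genes.

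Of 15 Foxm1 target genes, which run mitosis, 13 had a gene-end interval, led by Nek2 (110789), Cdc20 (105151), Cks1b (77037) and Cdc25b (51993), and Ccnb2 and Skp2 did not. Of 22 hedgehog and vascular partners of Foxf and Foxc, 13 did, led by Gli1 (99179), Notch1 (93089), Sufu (83239) and Gli2 (82867). Bmp4, Dll4 and Hhip had none at an end, although Bmp4 and Dll4 had an interval inside the gene. All 4 shares, 82.6%, 75%, 86.7% and 59.1%, lay above the 47.4% of all genes, which was not tested.

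The labelled cell type was checked on marker genes. Of 12 fibroblast markers 10 had a gene-end interval, among them Col1a1, Twist1 and Vim, against 47.4% of all protein-coding genes. Thy1 had none and Pdgfra had one only inside the gene. None of 5 epithelial, 4 endothelial, 4 haematopoietic or 4 pluripotency markers had one at an end. The endothelial marker Pecam1 had one inside the gene. Of 4 neuronal markers Rbfox3 had a gene-end interval. Its total, 354291, was above the highest total of a fibroblast marker, 144531 at Col6a1. These counts were not tested.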

How the data were processed

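ATAC-seq was made of 6 samples in 3 groups, and the 1 deposited interval list of the Ezh2 -/- group was used. Per the submitters' processing notes, Bowtie2 2.2.9, deepTools and SEACR were used with build mm10. Not given in the sources used here are the threshold, any control, duplicate removal, any transposase shift and the way replicates were pooled. Total signal is a score in the authors' unit as deposited. Maximum signal is the coverage height the authors deposited, with no stated normalization. Depth is unknown.

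Intervals with the same values were taken as pieces of 1 of 19215 called regions, and 4474 intervals do not contain their own maximum. A call needed an overlap of 1 bp or more with the 1000 bp on each side of either gene end, since the gene table has no strand, exons or introns. The promoter table gives starts for 17492 genes. Subfamilies, lists and members were chosen with earlier results of these data known. Every member is counted, and 1 of them is not reported here by name. From each list the text names up to 4 genes of highest total signal and, in alphabetical order, the first 3 that had no gene-end interval. Fold changes and p-values were not computed. Alternatives covered windows, thresholds, overlap, distances and grouping. Python 3.11.15, numpy 2.4.6, pandas 2.3.3, scipy 1.17.1 and matplotlib 3.10.9 were used, and the lookup was tested on simulated data.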

Additional observations from a re-analysis of the deposited data

How the results depend on the processing

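No paired analysis was possible because the list pools the replicates, and for the same reason no replicate could be left out. For called regions whose total signal exceeds the upper quartile, 10 forkhead genes kept a gene-end interval, 6 broad and 2 Polycomb-target (19.6% of all genes), and above the median 5 Polycomb-target genes did (32.7%). These counts are lower because fewer intervals enter. With listed starts only, the counts were 13 of 28 in all (46.4%) and 5 of 8 broad. Of all genes with a listed start 46.9% had one, so the forkhead genes as a whole did not lie above them. Fewer genes have a start listed, and Foxn3 and Foxn4 lost their call because their gene-end interval is not at the listed start. Without chromosomes 5, X and Y and chromosome 11 beyond 90 Mb, 7 of 8 broad genes had one, against 47.8% of all genes. The median number of intervals outside the gene was 1.5 within 50 kb, 6 within 200 kb and 1 above the median total signal, against 3 within 100 kb. With windows of 2500 bp, Foxb2, Foxl1 and Foxn1 gained a gene-end interval. The groups were also set by gene. Then Foxj1, Foxn1, Foxn4 and Foxs1 join the Polycomb-target group and Foxm1, Foxp1 and Foxp4 the broad group, while Foxo6 is in neither. With these groups, 11 of 26 Polycomb-target and 11 of 12 broad genes had a gene-end interval, against 47.4% of all genes. Leaving out intervals shared with another coding gene was chosen after seeing the data.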
